A study of Mus musculus with 56 samples.

Results

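RNA on the ribosomes of motor neurons was set against RNA of the whole spinal cord in mice that carry a mutant human TDP-43. The 18 libraries of the hTDP-43 A315T line, of 56 in the series, were taken by genotype and fraction from their titles: 9 from translating ribosome affinity purification of motor neurons (MN-TRAP), 5 at 9 weeks of age and 4 at 14 weeks, and 9 of spinal cord, 5 at 9 weeks and 4 at 14 weeks. The study as a whole asked which motor neuron transcripts change around the onset of motor symptoms, and its other libraries come from Chat bacTRAP mice without a TDP-43 transgene and from Chat bacTRAP mice with hTDP-43 WT. The question asked of the 18 libraries is which transcripts the purification enriched and which it depleted.

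All 18 libraries come from double transgenic mice on a C57BL/6J background, which the study describes as female. The first transgene, shared by every group of the series, is Chat bacTRAP (line DW167), in which an artificial chromosome with Chat regulatory sequence drives the ribosomal protein Rpl10a fused to EGFP. An antibody to EGFP then pulls down the ribosomes of cells that use Chat, which in the spinal cord are motor neurons but also cholinergic interneurons and autonomic preganglionic neurons. The second is human TDP-43 with the A315T mutation (line 95Balo/J) under the prion promoter, which is not restricted to motor neurons. The labels put 9 weeks and 14 weeks in the titles and give the tissue as cervical spinal cord, whereas the methods speak of spinal cord. The spinal cord library is the input that the study kept from the lysate of each sample, so the 2 fractions share animals. The labels do not say which libraries pair, and the libraries were treated as independent. Skeletal muscle transcripts, given with their values further on, nevertheless followed the replicate number in both fractions. The p-values measure the spread between libraries with that pairing left out.

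A motor neuron makes acetylcholine with choline acetyltransferase (Chat), loads it into vesicles with the transporter Slc18a3 and releases it at the muscle. Its identity is set in the embryo by homeodomain factors such as Mnx1, Isl1 and Lhx3, several of which stay on in the adult. Oligodendrocytes, astrocytes and microglia make up most of the other cells of the cord, and ribosome purification keeps cytoplasmic translated messages but not transcripts that stay in the nucleus or are translated inside mitochondria. In such bulk libraries fewer cells of a type and less RNA per cell cannot be told apart.

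Depth ranged from 12271054 to 43799600 counts in the MN-TRAP libraries (median 22214724) and from 30536595 to 76878108 in spinal cord (median 45499509). A pair of MN-TRAP libraries of the A315T line nearly equal a control library each: 14 weeks replicate 3 and an hTDP-43 WT library differed by 1.31 in chi-square over the number of genes, 9 weeks replicate 5 and a Chat bacTRAP library by 1.90, against 8.95 for the closest pair among the A315T libraries. A further library, 9 weeks MN-TRAP replicate 3 lay apart from the other MN-TRAP libraries for 22 of the genes and list sums given here, among them Slc18a3. Leaving out that pair gave 2433 genes called higher and 4412 called lower, and leaving out 9 weeks MN-TRAP replicate 3 gave 2298 and 4369, beside 2355 and 4314 with all 18 libraries. Values that leaving out a library moves are given where they occur.

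The purification changed most of the measured transcriptome. Of 17737 genes tested with edgeR's quasi-likelihood test, age being a covariate, 2355 (13.3%) were called higher in MN-TRAP and 4314 (24.3%) lower, where a gene was called at an adjusted p below 0.05 if its fold was 2 or more. Without the fold threshold 12833 genes had an adjusted p below 0.05. The log2 changes ran from -2.87 at the 5th percentile to 1.63 at the 95th, with a median of -0.10. Further from 0 the excess of lower calls was larger, with 735 genes at a log2 change of -3 or less and 135 at 3 or more. Every MN-TRAP library lay above every spinal cord library for 1665 of the genes called higher, and below for 2944 of those called lower. Over all genes tested the 9 libraries of each fraction did not overlap for 2783 genes higher in MN-TRAP (15.7%) and 3716 lower (21.0%). The split depends on the scaling: without any scaling beyond library totals the median moved to -0.44 and 18.9% of the calls were higher, beside 35.3% with TMM scaling.

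The markers of the label moved in the direction of the label. Chat ranged from 1838 to 6501 normalized counts in MN-TRAP (median 4631) and from 436 to 817 in spinal cord (median 733). Its log2 change was 2.80 ± 0.18 (SE, n = 9 and 9, edgeR adjusted p = 9.99e-12). Mnx1, a homeodomain factor that few other cells of the cord use, ranged from 1577 to 2811 in MN-TRAP (median 1910) and from 103 to 160 in cord (median 124). The 2 fractions of Chat and of Mnx1 did not overlap, and the log2 change of Mnx1 was 4.09 ± 0.12 (edgeR adjusted p = 5.01e-17).

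The myelin genes were far lower in MN-TRAP. Cnp, an enzyme of the myelin sheath, ranged from 4444 to 6283 in MN-TRAP (median 4849) and from 41900 to 50272 in cord (median 46439), a log2 change of -3.10 ± 0.08. Mog, a protein on the outer face of myelin, ranged from 811 to 1168 (median 1031) against 9539 to 11477 (median 9859), a log2 change of -3.25 ± 0.09. Neither fell to 0 in any MN-TRAP library, and for neither did the fractions overlap.

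**Figure D1:**
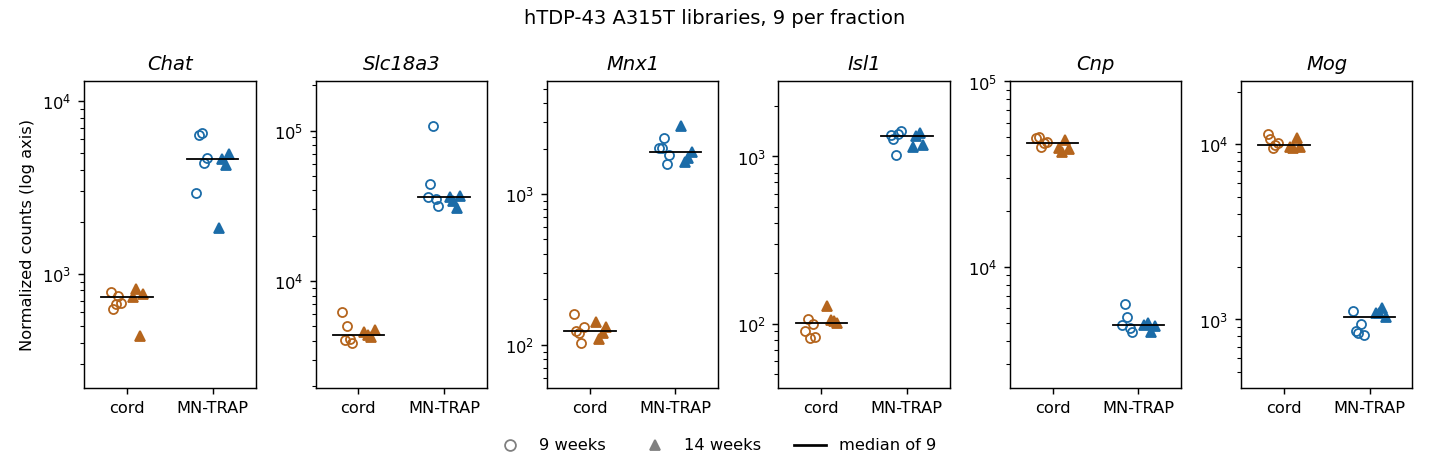
Normalized counts (log axis) of Chat, Slc18a3, Mnx1, Isl1, Cnp and Mog in the 9 spinal cord and 9 MN-TRAP libraries of the hTDP-43 A315T line. Open circles are 9 weeks, filled triangles 14 weeks, and each bar is the median of 9. All MN-TRAP libraries lie above all cord libraries for the first 4 genes and below them for Cnp and Mog, and 1 MN-TRAP library of 9 weeks reaches 106747 for Slc18a3.

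Chat and Slc18a3 share a locus on chromosome 14 of GRCm38. Chat occupies 32408203 to 32465989 on the minus strand, and Slc18a3, from 32462438 to 32464850 on the same strand, lies inside it, with Gm2990 running the other way from 32465042 to 32483548 across the Chat start. The artificial chromosome of the bacTRAP line carries this region, so reads from the transgene and from the endogenous genes cannot be told apart, and for overlapping genes the counting decides which gene gets a read. The 250 bases before the RefSeq start of each gene are shown as a description of the locus. Whether these windows direct expression was not tested. They were read from the RefSeq promoter table of GRCm38.p6 on the strand of the gene, chr14:32465910-32466159 (minus) for Chat and chr14:32464851-32465100 (minus) for Slc18a3. Neither window holds the palindrome TGACGTCA, the full cyclic AMP response element, so none of their letters are in capitals.
Chat: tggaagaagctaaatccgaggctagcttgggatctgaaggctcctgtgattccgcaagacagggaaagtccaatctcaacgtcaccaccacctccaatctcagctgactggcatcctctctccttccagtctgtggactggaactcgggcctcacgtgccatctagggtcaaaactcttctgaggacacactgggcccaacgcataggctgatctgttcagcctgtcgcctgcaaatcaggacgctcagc
Slc18a3: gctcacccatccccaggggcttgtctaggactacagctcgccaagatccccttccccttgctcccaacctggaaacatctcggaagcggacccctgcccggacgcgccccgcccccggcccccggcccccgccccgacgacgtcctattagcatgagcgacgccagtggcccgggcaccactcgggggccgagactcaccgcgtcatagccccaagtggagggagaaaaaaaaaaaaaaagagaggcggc

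The acetylcholine genes rose as a group. Of 6 measured, 5 were called higher and none lower, with a median log2 change of 2.00. Slc18a3, the vesicular acetylcholine transporter, ranged from 30560 to 106747 in MN-TRAP (median 36271) and from 3885 to 6258 in cord (median 4381). Its log2 change of 3.33 ± 0.20 became 3.08 ± 0.10 without 9 weeks MN-TRAP replicate 3, which holds the highest value. Slc5a7, which takes choline back up into the terminal, ranged from 8475 to 24227 (median 15627) against 1304 to 2237 (median 1614), a log2 change of 3.31 ± 0.16. Ache, which breaks acetylcholine down, and Prima1, which anchors it in the membrane, rose less, by 1.21 ± 0.14 and 1.17 ± 0.15 on the log2 scale. The exception was Colq, the collagen tail that anchors Ache in the muscle synapse, at 54.9 to 149 in MN-TRAP and 111 to 153 in cord, with a log2 change of -0.10 ± 0.15 (edgeR adjusted p = 0.560). Gm2990, which overlaps the Chat start on the opposite strand, was also higher, with a log2 change of 3.85 ± 0.09. Without scaling beyond library totals 3 of the 6 genes were called higher.

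Of 9 motor neuron transcription factors 6 were called higher and 2 lower, with a median log2 change of 2.26. Isl1, a LIM homeodomain factor of motor neurons and sensory neurons, ranged from 1023 to 1413 in MN-TRAP (median 1330) and from 82.3 to 127 in cord (median 101), a log2 change of 3.79 ± 0.10. Its relative Isl2 ranged from 582 to 1540 (median 790) against 79.7 to 132 (median 86.8), a log2 change of 3.29 ± 0.19. Lhx3 and Lhx4, which work with Isl1 in the embryo, both rose by 2.26 on the log2 scale, with standard errors of 0.13 and 0.10. Bcl6, a transcriptional repressor, rose by 2.29 ± 0.11.

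The remaining factors were 2 that fell and 1 that did not pass. Whether their use in other cells has a part in these values was not tested. Lhx1, found in many interneurons, ranged from 17.7 to 81.7 in MN-TRAP (median 36.7) and from 140 to 274 in cord (median 202), a log2 change of -2.27 ± 0.22. Ebf2 ranged from 28.4 to 145 (median 100) against 388 to 626 (median 514), a log2 change of -2.34 ± 0.21. Foxp1, a marker of the limb-innervating column that interneurons and glia use as well, overlapped between the fractions, at 321 to 632 and 488 to 614, with a log2 change of -0.06 ± 0.11 (edgeR adjusted p = 0.619).

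Markers of motor neuron subtypes were mostly higher, 14 of 22, with 2 lower and a median log2 change of 1.5 (12 higher and 4 lower without scaling beyond library totals). The members given here were called higher and are markers of several subtypes. Some of the 2 that fell and the 6 that did not pass follow in the next paragraph. Vipr2, the receptor for vasoactive intestinal peptide, ranged from 939 to 2375 (median 1689) against 134 to 180 (median 161), a log2 change of 3.51 ± 0.12. Chodl and Mmp9, markers of fast motor neurons, rose by 3.68 ± 0.14 and 2.29 ± 0.09 on the log2 scale. Spp1, found in large alpha motor neurons, rose by 2.45 ± 0.12 and ranged from 20001 to 36910 (median 24399) against 4454 to 6207 (median 5466). Wnt7a, Htr1d and Esrrb, used as markers of gamma motor neurons, rose by 1.13 ± 0.14, 2.07 ± 0.12 and 1.09 ± 0.10. These genes were chosen after their values were seen, and Esrrg, given in the next paragraph, was not called.

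Other members of the list did not follow. Rbfox3, the nuclear antigen NeuN of most neurons, overlapped between the fractions (log2 change 0.12 ± 0.13, edgeR adjusted p = 0.397), as did Esrrg (0.56 ± 0.16) and Nos1 (0.35 ± 0.09), neither of which reached 2-fold. The synaptic vesicle proteins on the list went different ways. Sv2b rose by 1.42 ± 0.09, while Sv2c, at a log2 change of -0.94, was not called. Sv2a had a log2 change of -1.57 ± 0.09, with 3150 to 4927 in MN-TRAP against 11549 to 14021 in cord. The other member called lower was Zeb2, at a log2 change of -2.60.

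The largest rises and falls are given for called genes whose mean reached 5 CPM (counts scaled to a common library total), whose fractions did not overlap and whose symbol is not a clone name. The 15 largest rises of this set ran from a log2 change of 3.68 to 4.93. Uts2b and Uts2, the 2 urotensin precursors, whose peptides act on a receptor best known from blood vessels, came first. Uts2b ranged from 2577 to 6137 in MN-TRAP (median 3903) and from 104 to 241 in cord (median 135), a log2 change of 4.93 ± 0.19 (edgeR adjusted p = 1.77e-15). Uts2 ranged from 4739 to 12484 (median 7402) against 227 to 480 (median 298), a log2 change of 4.72 ± 0.20.

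The next were Cartpt, the precursor of cocaine- and amphetamine-regulated transcript peptides, and Ucn, a peptide of the corticotropin-releasing factor family. Cartpt ranged from 5561 to 10985 (median 7929) against 342 to 575 (median 404), a log2 change of 4.37 ± 0.15. Ucn ranged from 187 to 984 (median 227) against 11.3 to 29.1 (median 14.8), a log2 change of 4.24 ± 0.33. Its highest value came from 9 weeks MN-TRAP replicate 3, and without that library the change was 3.81. The 2 genes for calcitonin gene-related peptide, which motor neurons release at the muscle, followed: Calcb at 4.16 ± 0.13, and Calca at 4.10 ± 0.14, with 15978 to 28502 in MN-TRAP (median 21158) and 1119 to 1729 in cord (median 1262).

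The other genes among the 15 were of several kinds. Slc10a4, a vesicular protein of cholinergic and aminergic neurons, ranged from 8941 to 12328 (median 10507) against 641 to 891 (median 699), a log2 change of 4.0 ± 0.09. Prph, the intermediate filament peripherin, ranged from 28711 to 70828 (median 41761) against 2932 to 4223 (median 3597), a log2 change of 3.81 ± 0.17. Sncg, gamma-synuclein, ranged from 31816 to 103425 (median 55530) against 3297 to 5631 (median 4044), a log2 change of 3.88 ± 0.17. Lgals1, the sugar-binding protein galectin-1, rose by 3.78 ± 0.12, and Tprg by 4.13 ± 0.19. Mnx1, Isl1 and Chodl, given above, also belong to the set.

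**Figure D2:**
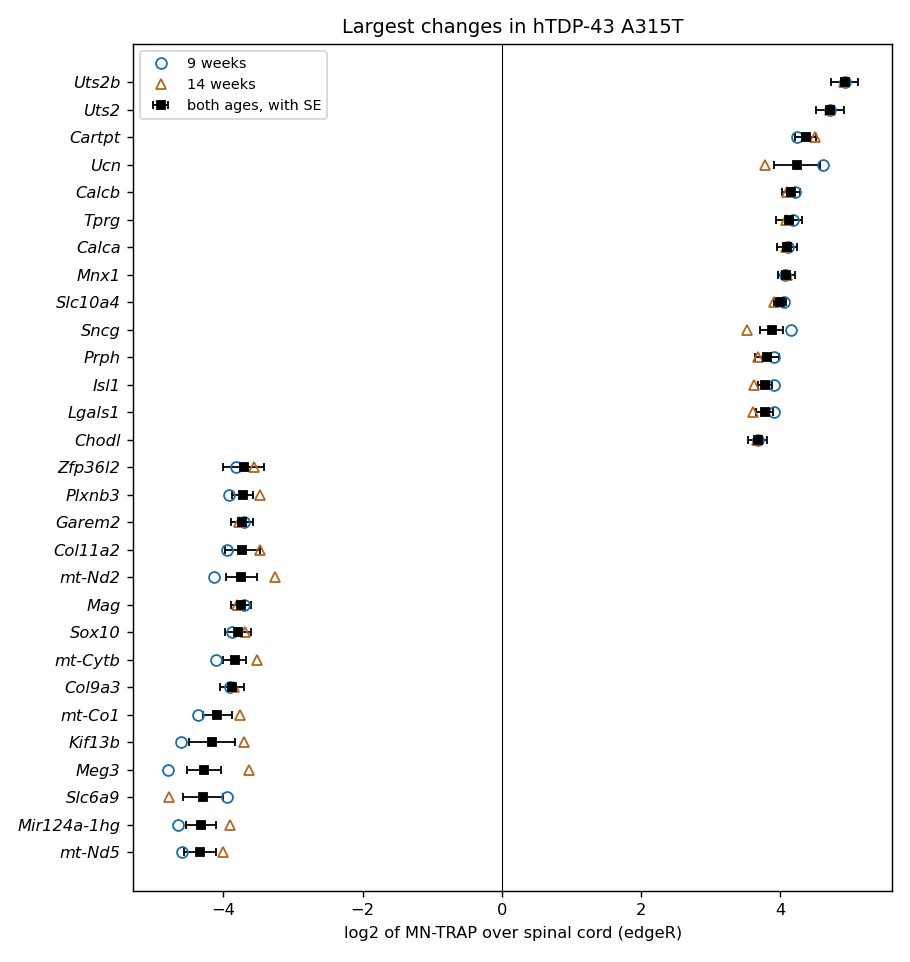
The log2 change of MN-TRAP over spinal cord in the hTDP-43 A315T line for 14 of the 15 largest rises and for the 15 largest falls, among called genes of at least 5 CPM without overlap. Squares with bars are the fit over both ages with its SE, and the other symbols are the 9 week and 14 week contrasts. The rises lie between 3.68 and 4.93, the falls between -4.33 and -3.71, and the 2 ages lie on the same side of 0 for every gene.

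Of the 15 largest rises 12 had an entry in the RefSeq promoter table, and 2 of these windows, of Cartpt and Ucn, hold the palindrome TGACGTCA (16.7%). Of the 15 largest falls 6 had an entry and 1 window, of Meg3, holds it, also 16.7%. Both strands read the same, so a match counts once. The share was 478 of 27025 genes in the table (1.77%), 367 of 12884 tested genes (2.85%), 50 of 1659 genes called higher (3.01%) and 57 of 3036 called lower (1.88%). Among the acetylcholine and transcription factor genes 1 of 13, Isl2, holds it. The windows are chr13:99900684-99900933 (minus) for Cartpt, chr5:31138896-31139145 (minus) for Ucn and chr9:55540899-55541148 (plus) for Isl2 on GRCm38.p6, printed on the strand of the gene with the palindrome in capitals. It begins 112, 44 and 11 bases before the RefSeq start.
Cartpt: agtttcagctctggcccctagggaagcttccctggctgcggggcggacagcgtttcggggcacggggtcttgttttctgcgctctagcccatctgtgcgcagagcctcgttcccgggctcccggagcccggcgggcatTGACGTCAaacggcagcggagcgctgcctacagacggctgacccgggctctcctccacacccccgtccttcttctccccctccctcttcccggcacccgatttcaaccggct
Ucn: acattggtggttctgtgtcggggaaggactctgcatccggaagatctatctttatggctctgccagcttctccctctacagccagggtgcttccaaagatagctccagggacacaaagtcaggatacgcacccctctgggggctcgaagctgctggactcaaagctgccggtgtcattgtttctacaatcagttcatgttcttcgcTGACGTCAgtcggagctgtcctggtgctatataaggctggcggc
Isl2: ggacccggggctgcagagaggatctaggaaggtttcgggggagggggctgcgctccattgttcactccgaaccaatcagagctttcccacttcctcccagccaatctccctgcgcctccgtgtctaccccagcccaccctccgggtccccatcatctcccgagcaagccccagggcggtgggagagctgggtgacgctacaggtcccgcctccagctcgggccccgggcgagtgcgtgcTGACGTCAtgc
The letters TATAAA, the core of a TATA box, searched on both strands, stand in 3 of the 12 windows of the rises (Prph, Uts2 and Uts2b) and in 2 of the 6 of the falls (Col11a2 and Meg3). They stand in 8.58% of the windows of tested genes, in 166 of 1659 of genes called higher and in 307 of 3036 of genes called lower. A match is a description of the window, and no binding was measured here.

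Genes of the axon's structure, of transport and of transmitter release were described as 3 lists, and the difference between the lists was not tested. Over all genes tested 13.3% were called higher and 24.3% lower. Of 17 genes of the neuronal cytoskeleton 9 were called higher and none lower, with a median log2 change of 1.10, and 8 higher and 3 lower without scaling beyond library totals. The neurofilament light chain Nefl ranged from 218587 to 482392 (median 257896) against 52374 to 63447 (median 57873), a log2 change of 2.52 ± 0.15. The medium and heavy chains Nefm and Nefh rose by 2.21 ± 0.12 and 1.82 ± 0.12. Stmn2, a tubulin-binding protein of growing axons, ranged from 91146 to 141099 (median 104346) against 20845 to 25612 (median 21294), a log2 change of 2.42 ± 0.09.

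Of 20 kinesin and dynein genes 2 were called higher, Klc1 (1.43 ± 0.12) and Kif21a (1.13 ± 0.11), and none lower. Dync1i1, an intermediate chain of dynein, rose without reaching 2-fold, at 7369 to 12015 in MN-TRAP and 5281 to 5888 in cord, a log2 change of 0.77 ± 0.09. The median of the group was 0.29, and -0.06 without scaling beyond library totals. Of 25 genes of synaptic vesicles and release 3 were called higher (Syt4, Sv2b and Vamp1) and 3 lower (Sv2a, Pclo and Cplx2), with a median of 0.09, and -0.26 without scaling beyond library totals. Syt4, a synaptotagmin of dense-core vesicles, ranged from 4908 to 12180 (median 10389) against 3221 to 4321 (median 3514), a log2 change of 1.55 ± 0.13. Cplx2, a complexin of central synapses, had a log2 change of -1.26 ± 0.11, and Pclo, a scaffold of the active zone, of -1.48 ± 0.17.

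Channel and receptor genes went both ways. The counts of these lists are to be read beside the shares over all genes tested, 13.3% called higher and 24.3% lower. Of 34 potassium channel genes 3 were called higher and 7 lower, with a median log2 change of 0.09, and 1 higher and 10 lower with a median of -0.26 without scaling beyond library totals. The leak channel Kcnk3 rose from a cord range of 1375 to 1843 (median 1421) to 5295 to 10659 in MN-TRAP (median 6123), a log2 change of 2.22 ± 0.12. Kcna5, a voltage-gated channel, rose by 1.30 ± 0.18. The glial channel Kcnj10 was the lowest, at 658 to 1401 (median 906) against 9328 to 12074 (median 10281), a log2 change of -3.41 ± 0.12. Kcnc1 and Kcna6 had log2 changes of -1.17 ± 0.08 and -1.27 ± 0.10.

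Of 23 sodium, calcium and HCN channel genes 3 were called higher and 4 lower, with a median of -0.16, and 1 higher and 6 lower with a median of -0.51 without scaling beyond library totals. Scn9a, a sodium channel best known from sensory neurons, ranged from 287 to 667 (median 526) against 176 to 254 (median 224), a log2 change of 1.38 ± 0.13. Cacna2d3, an accessory subunit of calcium channels, stood just past 2-fold, at 1.03 ± 0.08. The 4 lower were Scn3a (-1.06), Cacna1e (-1.08 ± 0.12), Hcn2 (-1.25 ± 0.27) and Hcn4 (-1.92). Hcn2 overlapped between the fractions only through 9 weeks MN-TRAP replicate 3, whose value of 22745 stood above the next MN-TRAP value of 6099.

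C-boutons are the large cholinergic synapses on motor neurons. Of 22 genes of these synapses and of postsynaptic receptors 5 were called higher and 5 lower, with a median log2 change of 0.44, and 2 higher and 6 lower with a median of 0.10 without scaling beyond library totals. The 5 higher included Nrg1, the growth factor stored beneath the C-bouton, at 1181 to 2119 (median 1291) against 293 to 469 (median 420), a log2 change of 1.94 ± 0.11. Chrm2, the muscarinic receptor there, rose by 1.26 ± 0.15, and Gabra2, a GABA receptor subunit, by 1.30 ± 0.14. The 5 lower were Chrna4 (-1.86 ± 0.09), Htr1a (-1.97), Grik1 (-1.17), Chrna7 (-1.11) and the AMPA receptor subunit Gria1, at 1121 to 1467 against 2596 to 3050, a log2 change of -1.04 ± 0.06.

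Of 15 trophic factor receptors 3 were called higher and 3 lower, with a median of -0.25, and 2 higher and 5 lower with a median of -0.59 without scaling beyond library totals. Ret, the signalling receptor for glial cell line-derived neurotrophic factor, ranged from 12773 to 16395 (median 13854) against 2521 to 3184 (median 3007), a log2 change of 2.36 ± 0.08. Its co-receptor Gfra1 rose by 1.58 ± 0.13, and Lifr, the receptor for leukaemia inhibitory factor, by 1.24 ± 0.13. The 3 lower were Ptk7 (-2.29 ± 0.20), Ntrk3 (-1.31) and Ngfr (-1.05).

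Most interneuron genes were depleted, and peptide genes on the interneuron lists went both ways. Of 12 precursors of neuropeptides on these lists 3 were called higher and 5 lower, and 4 did not pass. The 5 lower were Npff (-3.53), Npy (-2.64), Tac2 (-2.60), Tac1 (-1.71) and Nmu (-1.40). Of 18 inhibitory interneuron genes 15 were called lower, with a median log2 change of -1.92. Slc6a5, the glycine transporter of inhibitory terminals, ranged from 1046 to 2071 (median 1414) against 8565 to 13370 (median 11362), a log2 change of -2.78 ± 0.13. Slc32a1, which loads GABA and glycine into vesicles, ranged from 656 to 1139 (median 960) against 5400 to 7494 (median 5874), a log2 change of -2.61 ± 0.11. The developmental factor Pax2 had a log2 change of -2.79 ± 0.15. The 1 member called higher was Gal, the precursor of galanin, at 301 to 1787 (median 1107) against 150 to 329 (median 264), a log2 change of 2.23 ± 0.24, with overlap between the fractions.

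Of 19 excitatory interneuron genes 12 were called lower and 2 higher, with a median of -1.64. Lmx1b and Lbx1, factors of the dorsal horn, had log2 changes of -3.09 ± 0.18 and -3.08 ± 0.18. Slc17a6, the vesicular glutamate transporter of the cord, ranged from 543 to 1713 (median 1441) against 4932 to 5704 (median 5110), a log2 change of -1.83 ± 0.14. The 2 called higher are both peptide precursors. Nts, neurotensin, ranged from 1817 to 4432 (median 3309) against 351 to 593 (median 424), a log2 change of 2.98 ± 0.15, and Cck, cholecystokinin, rose by 1.10 ± 0.17 (0.97 and not called without 9 weeks MN-TRAP replicate 3).

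Of 11 genes of sensory ganglion neurons 7 passed the filter on low counts, with 2 called higher and none lower, and 1 higher and 1 lower without scaling beyond library totals. Sprr1a, also a gene of regenerating neurons, ranged from 28.5 to 139 in MN-TRAP (median 100) and from 6.76 to 23.2 in cord (median 16.5), a log2 change of 2.48 ± 0.27. P2rx3, which marks pain-sensing neurons, overlapped at 42.3 to 140 and 35.1 to 82.6 (edgeR adjusted p = 0.0602). Together the 11 genes held 0.00176% to 0.00413% of the MN-TRAP counts and 0.00144% to 0.00292% of those of cord.

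**Figure D3:**
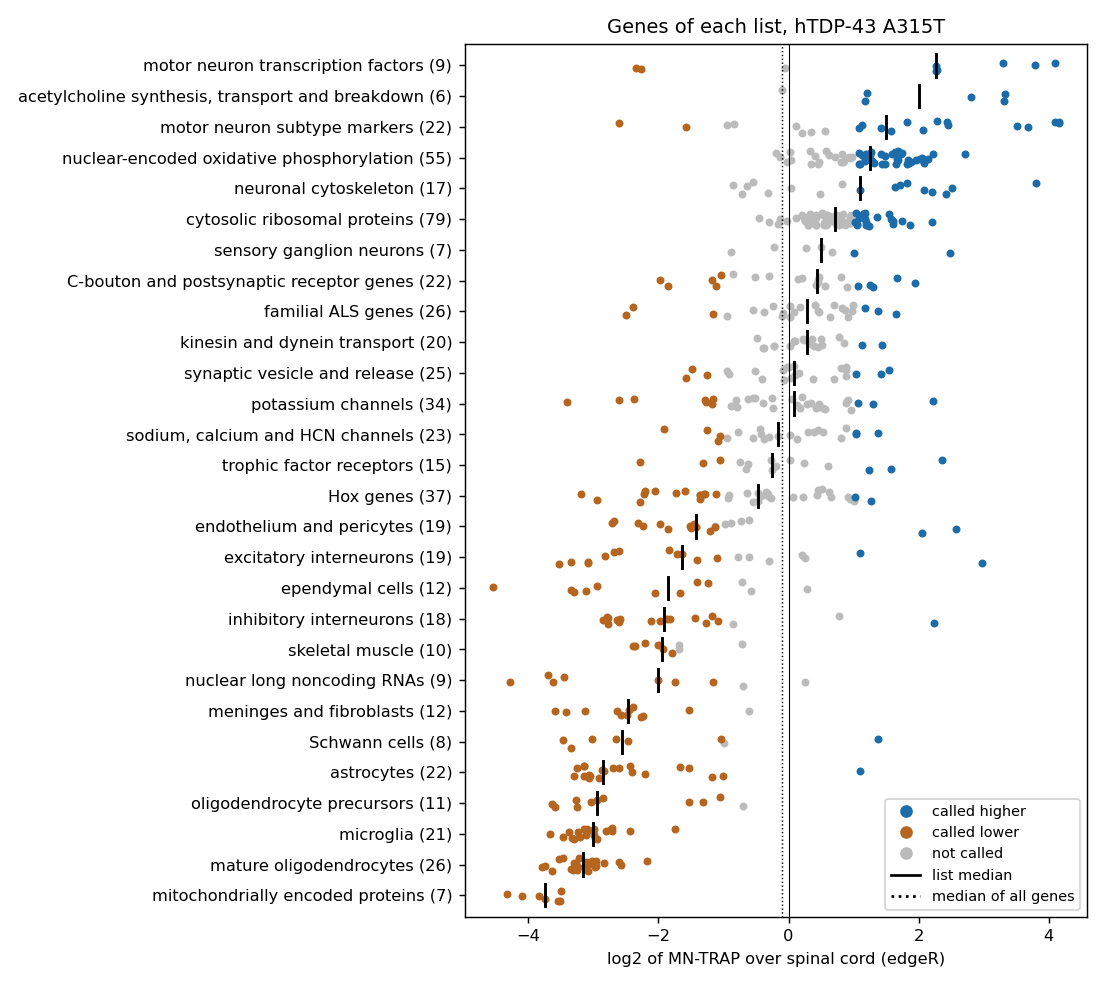
The log2 change of MN-TRAP over spinal cord for every tested gene of 28 lists in the hTDP-43 A315T line, with the number of tested genes after each list's name. Blue points were called higher, brown lower and grey neither, black bars are list medians and the dotted line is the median of all tested genes (-0.10). The lists run from a median of -3.74 (mitochondrially encoded proteins) to 2.26 (motor neuron transcription factors).

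Glial genes fell almost without exception. All 26 genes of mature oligodendrocytes were called lower and did not overlap between the fractions, with a median log2 change of -3.16 and a range of -3.79 to -2.18. Together they held 0.19% to 0.29% of the MN-TRAP counts and 2.4% to 2.81% of the cord counts. Mbp, the myelin basic protein, whose message travels into the myelin sheath, ranged from 9532 to 16088 (median 11641) against 117722 to 172023 (median 131699), a log2 change of -3.35 ± 0.11. Sox10, the factor of the oligodendrocyte lineage, and Mag, a myelin protein, stood among the 15 largest falls of the set given above, at -3.79 ± 0.19 and -3.75 ± 0.14.

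Of 11 genes of oligodendrocyte precursors 10 were called lower, with a median of -2.94. Gpr17, a receptor of cells about to mature, ranged from 48.1 to 151 (median 94.8) against 741 to 1759 (median 1175), a log2 change of -3.63 ± 0.16. The exception was Cspg4, the proteoglycan NG2, at 22.3 to 494 (median 137) in MN-TRAP and 190 to 346 (median 236) in cord, a log2 change of -0.70 ± 0.33 (edgeR adjusted p = 0.0605).

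Of 22 astrocyte genes 21 were called lower, with a median of -2.85. Gfap, the filament of astrocytes, ranged from 3062 to 8443 (median 4201) against 39766 to 54088 (median 46643), a log2 change of -3.15 ± 0.16. Aqp4, the water channel of astrocyte endfeet, had a log2 change of -2.83 ± 0.22. The exception was S100b, a calcium-binding protein that some motor neurons also make, at 37469 to 49919 (median 42246) against 18348 to 25530 (median 21230), a log2 change of 1.10 ± 0.08 with no overlap.

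All 21 microglial genes were called lower without overlap, with a median of -3.0. P2ry12 and Tmem119, which mark resting microglia, had log2 changes of -2.98 ± 0.25 and -3.37 ± 0.18. Csf1r, the growth factor receptor microglia depend on, ranged from 44.4 to 165 (median 90.6) against 786 to 1778 (median 1154), a log2 change of -3.46 ± 0.20. The 21 genes together held 0.0047% to 0.00837% of the MN-TRAP counts and 0.0439% to 0.0849% of the cord counts.

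The lists of vessels and sheaths were more mixed. Of 19 genes of endothelium and pericytes 12 were called lower and 2 higher. Cldn5, the tight junction protein of the blood-brain barrier, ranged from 9.16 to 106 (median 18.8) against 111 to 203 (median 125), a log2 change of -1.85 ± 0.35. The 2 higher were Itm2a, a membrane protein, at 2048 to 5682 (median 3793) against 598 to 827 (median 655), a log2 change of 2.58 ± 0.16, and Egfl7, a secreted protein of vessels, at 2.05 ± 0.15. Neither overlapped between the fractions.

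Of 12 genes of meninges and fibroblasts 11 were called lower, with Igf2 at -3.59 ± 0.26 and Ptgds, the prostaglandin D synthase abundant in meninges and oligodendrocytes, at -3.42 ± 0.15. The exception was Dcn, at 459 to 977 against 738 to 1799 (-0.60 ± 0.15). Of 12 ependymal genes 9 were called lower, with a median of -1.86. Of 8 Schwann cell genes 6 were called lower and 1 higher, Pmp22, a peripheral myelin protein that neurons also express, at 9287 to 12696 (median 12056) against 4134 to 5849 (median 4572), a log2 change of 1.38 ± 0.08.

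Skeletal muscle genes varied most among libraries. Of 10, all below 0 on the log2 scale, 6 were called lower (9 without scaling beyond library totals), and none separated the fractions without overlap. Acta1, skeletal actin, ranged from 26.9 to 467 in MN-TRAP (median 152) and from 69.7 to 3451 in cord (median 830). The sum of the 10 genes ran from 227 to 7400 normalized counts among cord libraries and from 79.2 to 1235 among MN-TRAP libraries. The sums followed the replicate number within each age: the cord library was the higher of the same-numbered libraries for all 9 numbers, by 2.42 to 6.45 times, and 7 of the 9 numbers held the same rank in both fractions. At 9 weeks replicate 1 had the highest sum in both fractions (7400 in cord and 1235 in MN-TRAP) and replicate 2 the lowest (227 and 79.2). With the replicate number as a block 9 of the 10 genes were called lower.

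Genes of the respiratory chain parted by the genome that encodes them. Of 13 genes encoded in mitochondrial DNA 7 passed the filter on low counts, and all 7 were called lower without overlap, with a median log2 change of -3.74. They include 4 of the 15 largest falls of genes that reached 5 CPM without overlap. mt-Nd5, a subunit of complex I and the largest fall of that set, ranged from 486 to 1544 (median 732) against 7086 to 26544 (median 20379), a log2 change of -4.33 ± 0.23. mt-Co1, a subunit of complex IV, ranged from 1992 to 7617 (median 3262) against 48599 to 99075 (median 75254), a log2 change of -4.09 ± 0.21. mt-Cytb, of complex III, and mt-Nd2 had log2 changes of -3.84 ± 0.17 and -3.74 ± 0.22. The 13 genes held 0.0336% to 0.119% of the MN-TRAP counts and 0.865% to 1.52% of the cord counts.

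The nuclear genes of the same chain rose. Of 55, 35 were called higher and none lower, with a median log2 change of 1.26, and 44 did not overlap between the fractions. Over all genes tested 13.3% were called higher and 24.3% lower, and 15.7% were higher without overlap. Cox7a2, a small subunit of complex IV, ranged from 18118 to 28955 (median 22983) against 4443 to 8474 (median 5915), a log2 change of 2.05 ± 0.13. Ndufa1, of complex I, ranged from 6576 to 15617 (median 8599) against 1673 to 2804 (median 2129), a log2 change of 2.22 ± 0.15. The highest was Atp5k, a small subunit of ATP synthase, at 2.71 ± 0.21, and the lowest Sdha, the large subunit of complex II, at -0.19 ± 0.07. Without scaling beyond library totals 24 of the 55 were called higher.

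Cytosolic ribosomal protein genes were called higher in part. Of 79, 20 were called higher and none lower, with a median log2 change of 0.71, and 8 were called higher without scaling beyond library totals. Over all genes tested 13.3% were called higher and 24.3% lower. The list was not set against genes of like coding length, the subject of the next paragraph. Rps29 rose by 2.20 ± 0.18, Rpl39 by 1.87 ± 0.16, Rpl41 by 1.74 ± 0.15 and Rpl15 by 1.36 ± 0.12. These genes share reads with many pseudogene copies, so their levels are uncertain. Rpl10a, the protein tagged in the bacTRAP transgene, ranged from 68.7 to 278 in MN-TRAP (median 90.6) and from 150 to 198 in cord (median 174), a log2 change of -0.46 ± 0.21 (edgeR adjusted p = 0.0502). The highest value belongs to 9 weeks MN-TRAP replicate 3, and without it the change was -0.73 (edgeR adjusted p = 8.04e-05). How reads of the tagged transgene were counted is not given in the sources used here.

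The change was graded by coding length. Among 10978 protein-coding genes whose mean reached 5 CPM, the median log2 change fell with every step of the longest annotated coding length. It was 1.15 for 205 genes of up to 300 nucleotides, 0.91 for 698 genes of 301 to 500, 0.45 for 2532 genes up to 1000 and 0.07 for 4197 genes up to 2000. It was -0.19 for 1787 genes up to 3000, -0.37 for 1077 genes up to 5000 and -0.64 for 482 genes beyond 5000. The share called higher was 57.6% in the shortest class and 2.70% in the longest, and the share called lower was 7.80% and 31.3%. Spearman's rho across genes was -0.398, and -0.395 at each age taken alone, and genes are not independent replicates. In Chat bacTRAP and hTDP-43 WT mice it was -0.373 and -0.367.

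The same order appeared within the nuclear respiratory chain. Of its 26 genes with a coding length of up to 500 nucleotides 23 were called higher, with a median of 1.69, and of its 29 longer genes 12 were, with a median of 0.86. Peptide precursors are short as well, with 339 nucleotides of coding sequence for Uts2b, 369 for Uts2 and 387 for Cartpt. Genes that rose in spite of long coding sequences include Ret, with 3345 nucleotides, and Nefh, with 3270. Whether coding length itself has a part in these values was not tested.

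**Figure D4:**
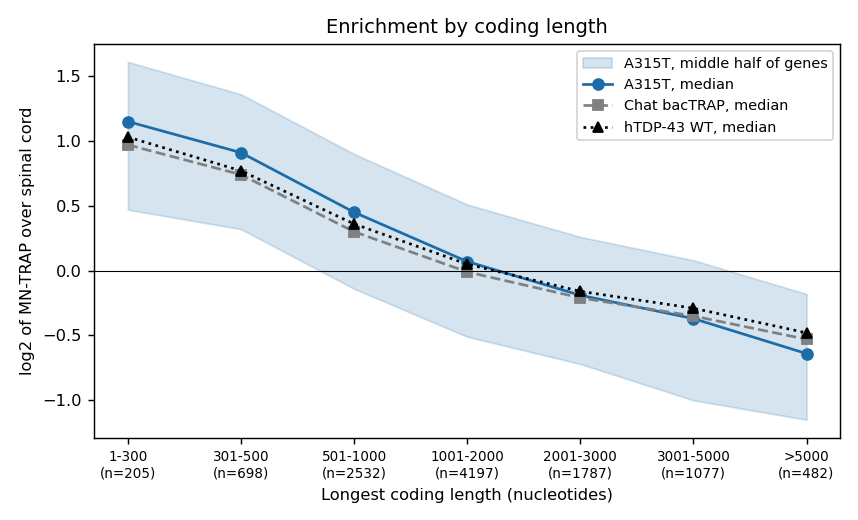
Median log2 change of MN-TRAP over spinal cord in 7 classes of coding length, with the number of genes in each class. The shaded band spans the 25th to 75th percentile of genes in the hTDP-43 A315T line, and the other lines are the Chat bacTRAP and hTDP-43 WT mice. In the A315T line the median falls from 1.15 in the shortest class to -0.64 in the longest, and all 3 lines slope the same way.

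Nuclear transcripts were depleted. Of 9 nuclear long noncoding RNAs 7 were called lower and none higher, with a median log2 change of -2.0. Meg3, an imprinted noncoding RNA of neurons, ranged from 675 to 2522 (median 869) against 15143 to 29312 (median 24200), a log2 change of -4.28 ± 0.24. Neat1, the scaffold of paraspeckles, ranged from 359 to 1188 (median 555) against 5839 to 10049 (median 8074), a log2 change of -3.62 ± 0.17. Malat1, of nuclear speckles, ranged from 187 to 410 (median 263) against 1188 to 8040 (median 3413), a log2 change of -3.45 ± 0.30. The depletion did not extend to noncoding genes as a class: of 498 long intergenic noncoding genes tested 133 (26.7%) were called higher and 131 (26.3%) lower, beside 12.1% and 24.3% of 15443 protein-coding genes.

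The remaining large falls were in genes of different kinds. Mir124a-1hg, the host transcript of a neuronal microRNA, ranged from 22.9 to 96.3 (median 72.7) against 895 to 2038 (median 1383), a log2 change of -4.32 ± 0.22. Slc6a9, the glial glycine transporter, ranged from 13.3 to 169 (median 85.8) against 1108 to 2435 (median 2101), a log2 change of -4.29 ± 0.29. Kif13b (-4.17 ± 0.33) is a kinesin, Col9a3 (-3.88 ± 0.17) and Col11a2 (-3.73 ± 0.25) are collagens, and Plxnb3 (-3.72 ± 0.15) is a plexin of oligodendrocytes. Garem2 (-3.73 ± 0.16) and Zfp36l2, a protein that destabilizes messages (-3.71 ± 0.30), close the list.

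Genes mutated in familial amyotrophic lateral sclerosis were mostly within 2-fold. Of 26, 3 were called higher and 3 lower, with a median of 0.29, and -0.06 without scaling beyond library totals. Most genes tested were not called either (11068 of 17737), while 13.3% of all genes tested were called higher and 24.3% lower. Sod1, the superoxide dismutase, ranged from 15054 to 29515 (median 20900) against 5652 to 10050 (median 7172), a log2 change of 1.65 ± 0.13. Sqstm1, the autophagy receptor p62, ranged from 33116 to 57809 (median 43414) against 17640 to 19937 (median 18867), a log2 change of 1.37 ± 0.10. Vcp, an ATPase of protein degradation, rose by 1.18 ± 0.14. The 3 lower included Spg11 (-2.50 ± 0.38) and Erbb4 (-2.39 ± 0.17).

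Tardbp, the mouse gene for TDP-43, ranged from 2261 to 3364 in MN-TRAP (median 3019) and from 2916 to 3769 in cord (median 3421). The fractions overlapped, and the log2 change was -0.09 ± 0.09 (edgeR adjusted p = 0.341). Whether reads of the human transgene were counted in the mouse gene was not tested.

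Hox genes record position along the body axis, low numbers toward the head and high numbers toward the tail. Of 37 tested 2 were called higher, Hoxc5 (1.27 ± 0.08) and Hoxd9 (1.02 ± 0.09), and 14 lower, beside 13.3% and 24.3% of all genes tested. Without scaling beyond library totals 0 were higher and 17 lower. Hoxb9 and Hoxb8 had log2 changes of -2.21 ± 0.09 and -2.05 ± 0.18. Of 7 genes of paralogue groups 1 to 3, 6 were called lower. The 11 genes of groups 10 to 13, which mark lumbar and sacral levels, summed to 2533 to 3459 normalized counts in cord and 2474 to 3902 in MN-TRAP, with Hoxc10 at 1427 to 2424 in MN-TRAP and 1061 to 1462 in cord. Both fractions thus hold transcripts of levels below the cervical cord named in the label.

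The 2 ages gave calls in like numbers. At 9 weeks 2342 genes (13.2%) were called higher and 4130 (23.3%) lower, and at 14 weeks 2230 (12.6%) and 3883 (21.9%). Genes called higher at both ages numbered 1883, which is 80.4% of the calls at 9 weeks and 84.4% of those at 14 weeks. Genes called lower at both numbered 3300, or 79.9% and 85.0%. No gene of 17737 was called for the difference between the ages in either direction (0.0%). At an unadjusted p below 0.05 the difference held 847 genes, the smallest adjusted p was 0.478, DESeq2 called 15 genes and limma-voom 0.

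Single genes show how wide the age contrast is. Chat had a log2 change of 2.96 ± 0.25 at 9 weeks and 2.60 ± 0.27 at 14 weeks, and Mnx1 of 4.07 ± 0.17 and 4.10 ± 0.19. Meg3 was at -4.80 ± 0.28 and -3.63 ± 0.29, and Fcrls, a microglial receptor, at -3.11 ± 0.32 and -4.64 ± 0.42. Ucn was at 4.62 ± 0.45 and 3.79 ± 0.48, with the 9 week value holding replicate 3. None of these differences passed the edgeR test of the age difference.

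The A315T line was set against the control lines. It was picked out for little glial carry-over and a wide span of change, so its glial values and its span beside those of the other lines are a description of that choice, with no test. Over all 56 libraries fitted together, 18838 genes were tested. The A315T line had 2498 genes called higher and 4537 lower, Chat bacTRAP 1743 and 4303, and hTDP-43 WT 1846 and 3739. Of the genes higher in the A315T line 1481 were also higher in Chat bacTRAP, which is 59.3% of the A315T calls and 85.0% of the others, and 1543 in hTDP-43 WT (61.8% and 83.6%). Without 4 control libraries described next, these shares were 51.1% and 81.8% for Chat bacTRAP, and 49.8% and 77.2% for hTDP-43 WT. The lines share 1 estimate of the spread and no deposited library, but 2 A315T libraries nearly equal a control library, as given above.

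The upper end of the span reached furthest in the A315T line and the lower end did not. The 95th percentile of the log2 change was 1.69 there, 1.42 in Chat bacTRAP and 1.5 in hTDP-43 WT, while the 5th percentile was -3.10, -3.34 and -2.89. Among the control MN-TRAP libraries 4 stand apart. In 3 of them the pseudogene Lamr1-ps1 was read at the level of the A315T libraries (0.48 to 2.93 CPM in all 18, and at most 0.0398 in the 34 remaining controls), 2 of these being the near-equals given above. The other holds reads of the Y-linked gene Ddx3y at 51.0 CPM, with no other library of the series above 0.828. Without these 4 the 5th percentiles were -3.16 in the A315T line, -4.01 in Chat bacTRAP and -4.65 in hTDP-43 WT. Depth was more uneven among the control MN-TRAP libraries, from 472447 to 255802240 counts, both in hTDP-43 WT. Chat bacTRAP libraries of low depth held 2414523, 2486628 and 4801258 counts. Low counts make the lower end uncertain in such libraries. Whether depth has a part in these percentiles or in the line differences was not tested.

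The glial shares by which the line was picked are given as values. The oligodendrocyte genes held 0.19% to 0.29% of the MN-TRAP counts in the A315T line, 0.195% to 2.23% in Chat bacTRAP and 0.262% to 2.48% in hTDP-43 WT. In spinal cord the same genes held 2.4% to 2.81%, 2.64% to 3.64% and 2.56% to 3.39%. The microglial genes held 0.0047% to 0.00837%, 0.00483% to 0.0355% and 0.0061% to 0.0272% of the MN-TRAP counts. The transcription factors of motor neurons held 0.0282% to 0.0392% of the MN-TRAP counts in the A315T line, 0.0206% to 0.0371% in Chat bacTRAP and 0.0185% to 0.0324% in hTDP-43 WT.

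The difference between lines was called for few genes with all libraries in the fit. Against Chat bacTRAP the enrichment was higher in the A315T line for 46 genes (0.244%) and lower for 79 (0.419%), and against hTDP-43 WT higher for 4 (0.0212%) and lower for 114 (0.605%). Both comparisons share the A315T libraries. These counts depended on the 4 control libraries: without them 745 (3.84%) and 676 (3.48%) of 19421 genes passed against Chat bacTRAP, and 978 (5.04%) and 788 (4.06%) against hTDP-43 WT. The counts include glial genes, by whose level the line was picked. The 26 oligodendrocyte genes had median differences of -1.16 from Chat bacTRAP and -1.30 from hTDP-43 WT on the log2 scale. The 7 mitochondrially encoded genes had median differences of -2.06 and -2.12 with none called lower, and without the 4 libraries of -2.40 and -2.43 with 5 and 7 called lower. In spinal cord the share of this list ran from 0.865% to 1.52% in the A315T line, from 0.888% to 7.6% in Chat bacTRAP and from 0.859% to 8.36% in hTDP-43 WT.

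Chat and Mnx1 did not pass as differing between lines with all libraries in the fit. The log2 difference for Chat was 0.19 ± 0.38 from Chat bacTRAP and -0.01 ± 0.38 from hTDP-43 WT (edgeR adjusted p = 0.895 and 1.0). For Mnx1 it was 0.69 ± 0.22 and 0.42 ± 0.23 (adjusted p = 0.108 and 0.461). That fit keeps the control libraries that stand apart, on which the counts of line calls depended. Without those libraries no gene of the acetylcholine list, which holds Chat, was called against either line. Of the motor neuron transcription factors, which include Mnx1, none was called higher, and 1 was called lower against Chat bacTRAP. The differences of Chat and Mnx1 themselves without those libraries are not given here.

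The genes given next were picked as the largest called differences between lines, so their p-values are those of selected genes. Garem2 differed by -1.92 ± 0.32 from Chat bacTRAP (edgeR adjusted p = 0.00205) and Col6a2, a collagen of fibroblasts, by -2.51 ± 0.60 (0.0327). Against hTDP-43 WT, Col6a2 differed by -2.76 ± 0.61 (0.0165). Higher enrichment was found for Ccn3, a secreted matricellular protein, which differed by 1.44 ± 0.35 from Chat bacTRAP (0.0369). In the A315T line alone Ccn3 ranged from 187 to 448 (median 305) against 46.6 to 90.7 (median 73.3), a log2 change of 2.24 ± 0.15.

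Shox2, a homeodomain factor of interneurons, also passed as higher, by 2.59 ± 0.59 (0.0223), although it was lower in MN-TRAP than in cord. In the A315T line it ranged from 24.4 to 402 in MN-TRAP (median 52.1) and from 158 to 246 in cord (median 187), a log2 change of -1.05 ± 0.40. The value of 402 belongs to 9 weeks replicate 3 and the next was 89.3, and without that library the log2 change was -1.88.

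**Figure D5:**
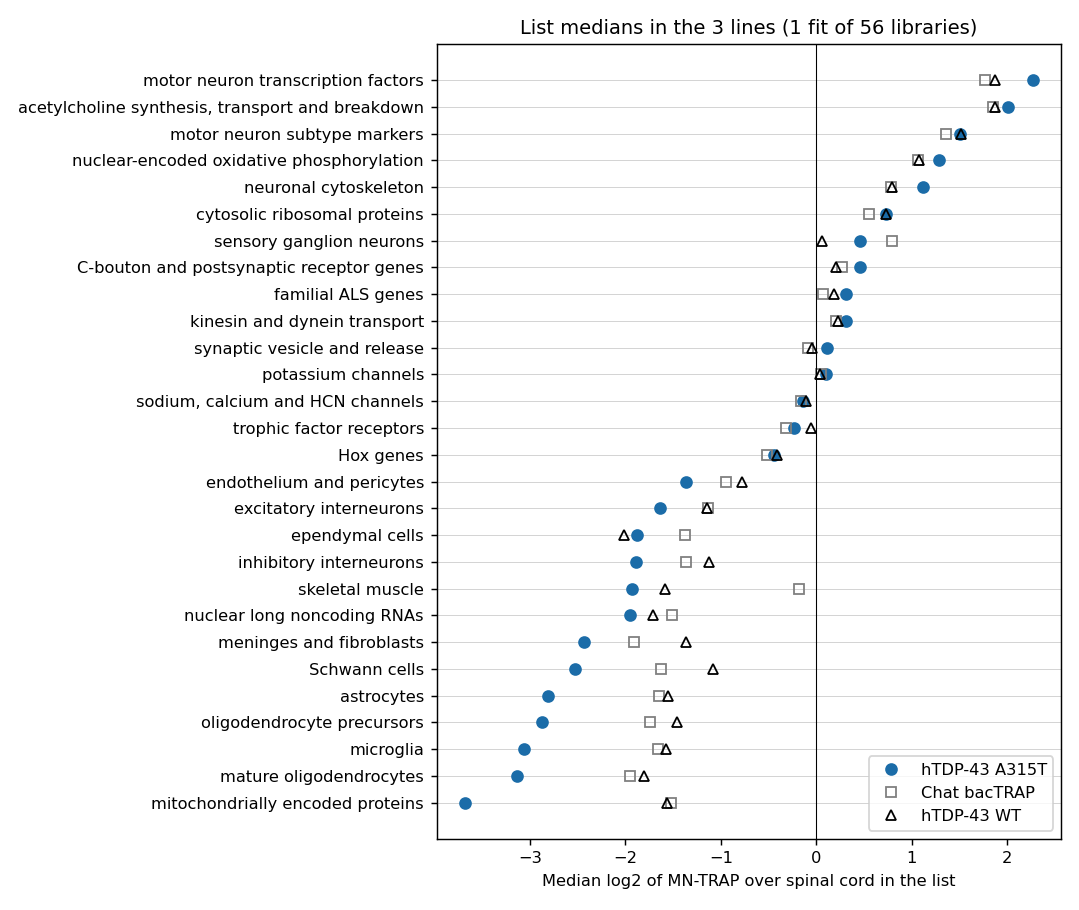
Median log2 change of MN-TRAP over spinal cord in each of the 28 lists, from 1 fit of all 56 libraries. Filled circles are hTDP-43 A315T, open squares Chat bacTRAP and open triangles hTDP-43 WT. For mature oligodendrocytes the medians are -3.14, -1.95 and -1.81 and for motor neuron transcription factors 2.27, 1.77 and 1.87, while most channel and transport lists lie close together.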

How the data were processed

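RNA was sequenced from MN-TRAP and spinal cord fractions as described above. The authors deposited counts, whole numbers of reads for each Ensembl gene, made, per the labels, with STAR and featureCounts on mm10 (GRCm38), and the signal values deposited by the authors are these counts divided by 1 size factor per library (DESeq2). The latter are the normalized counts given for single genes. According to the methods, libraries of low depth and outliers had been removed before deposit.

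Of 43629 genes, 42462 were named from GENCODE M21. In R 4.3.3, counts of the 18 A315T libraries were filtered with filterByExpr, scaled by TMM and fitted with edgeR 4.0.16 (glmQLFit with robust estimation, glmQLFTest), with age as a factor. Adjusted p-values (Benjamini-Hochberg) run over all genes tested. Ages were contrasts of a 4-group fit, and lines of a 12-group fit of all 56 libraries. The scripts were tested on simulated data with 200 changed genes. DESeq2 1.42.0, limma 3.58.1 (voom), other scalings, no filter, glmTreat, a replicate block and leaving out libraries were alternatives. Over all genes replicate numbers did not meet the criterion for pairing the samples (each correlation of same-numbered deviations above 0.1).

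Named genes were the 4 markers, all acetylcholine and motor neuron transcription factor genes, up to 4 genes per other list with the smallest p, Slc18a3 and Rpl10a, the 15 largest rises and falls (mean of at least 5 CPM, no overlap, no clone names) and up to 6 per direction for the age and line differences. These were chosen after their values were seen: S100b, Cck, Gal, Cspg4, Dcn, Vamp1, Chrm2, Gabra2, Spp1, Mmp9, Esrrb, Esrrg, Rbfox3, Wnt7a, Htr1d, Nos1, Sdha, Tardbp, Malat1, Gad2, Slc17a6, Vcp, Spg11, Hoxc10, Mbp, Nefh, Gfap, Aqp4, P2ry12, Cldn5, Kcna5, Pclo, Hcn2, Gm2990, Atp5k, Zeb2, Scn3a, Hcn4, Htr1a, Grik1, Chrna7, Ntrk3, Ngfr, Npff, Npy, Tac2, Tac1, Nmu, Lamr1-ps1 and Ddx3y. Some genes that the rule names are not reported here, though they count in the fits and list totals. The members and lists were chosen with earlier results of these data known. Depth sets the precision of low values, and chi-square values compare counts of genes with at least 20 reads over a pair of libraries.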

Additional observations from a re-analysis of the deposited data

Results flagged for a closer look

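Among the 418 sets of 9 libraries examined, 1 per gene or list sum and fraction, 66 (15.8%) had a highest or lowest library far from the other 8 by Dixon's ratio. Its limit sets about 1 in 20 apart for independent sets of normally distributed values. Here both ages were pooled on the count scale and the sets share libraries, so the 15.8% cannot be set against that rate. Normalized counts are given for each set with a library apart, and no explanation was tested.

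In MN-TRAP, 9 weeks replicate 3 was the highest for Slc18a3 (106747), Ache (26308), Prima1 (1476), Nrg1 (2119), Kcnk3 (10659), Tubb6 (889), Rps29 (572), Ucn (984), Sncg (103425), Rpl10a (278), Shox2 (402) and Hcn2 (22745), and the lowest for Lifr (2051), Scn9a (287), Kif5c (15342) and Slc17a6 (543). It was also the highest for the summed acetylcholine genes (149634), sodium, calcium and HCN channels (126761), potassium channels (93745), sensory ganglion genes (1349), ependymal genes (1678) and familial ALS genes (263092).

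At 14 weeks, MN-TRAP replicate 1 was the lowest for Gfra1 (1989) and the highest for Kcna6 (1821), Dync1i1 (12015), Col1a2 (410), Sdha (15163), Vcp (6035), Atp5k (58124) and the summed Hox genes (41283). MN-TRAP replicate 2 was the highest for Lhx1 (81.7), Ptprz1 (214), Sall1 (254), Vtn (232), Htr1d (820), Aqp4 (1965) and P2ry12 (104), several of them glial genes.

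The remaining MN-TRAP libraries stood apart less often. At 9 weeks, replicate 2 was the highest for Cnp (6283), Cspg4 (494) and Mmp9 (2334), replicate 1 for Sox2 (212), and replicate 4 was the lowest for the summed C-bouton and receptor genes (27333).

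In spinal cord, 14 weeks replicate 3 was the lowest for Chat (436) and Pclo (554) and the highest for Kcna6 (3502), Stmn2 (25612), Itm2a (827), Atp5o (9503), Rps29 (95.1), Rpl15 (1567) and Uts2b (241), and 14 weeks replicate 2 was the highest for Kif5c (18160). At 9 weeks, replicate 1 was the highest for Slc18a3 (6258), Kcnk3 (1843), Slc32a1 (7494), Ntsr2 (3888), Col6a2 (472), Mbp (172023) and Hcn2 (24448). Replicate 2 was the lowest for Prima1 (261), Chrna4 (1091) and Garem2 (764) and the highest for Fcrls (725) and Tent5c (702), replicate 3 the highest for Malat1 (8040) and replicate 5 for Car3 (622).

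The largest differences in enrichment between lines that the edgeR test called are listed as 14 gene and line pairs. These genes were named because of that call, so the calls are no further result. Against Chat bacTRAP the log2 difference was 2.59 for Shox2, 1.44 for Ccn3, -2.51 for Col6a2, -2.04 for Emp2, -1.93 for Fcrls, -1.92 for Garem2, -1.76 for Meg3 and -1.75 for Sgk2. Against hTDP-43 WT it was -2.90 for Tent5c, -2.76 for Col6a2, -2.50 for C1qa, -2.40 for Klhdc7a, -2.36 for Plxnb1 and -2.26 for Vsir. Fcrls and C1qa are microglial genes, and the line was picked for low glial carry-over, so their differences are no independent evidence. Carry-over from other cells was not separated from the remaining differences either, such as that of Col6a2, a collagen of fibroblasts.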

How the results depend on the processing

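Of 4887 values of 181 named genes under other settings 4812 kept their direction and their side of the threshold, 64 lost the call, 9 gained it and 2 turned: Foxp1 ran from -0.12 to 0.01 as each library was left out, turning without 9 weeks MN-TRAP replicate 3, and Rbfox3 -0.23 with no scaling beyond library totals. For 152 genes no setting changed a call, and the calls lost were mostly of genes near 2-fold such as Hoxd9, Vamp1 and Cacna2d3. Of 1512 list counts 1461 stayed within 1.5 times.

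The genes called higher numbered 1323 with no scaling and 1467 when glmTreat tested against a 2-fold change. With no scaling they numbered 1244 at 9 weeks and 1323 at 14 weeks. Leaving out each library in turn gave 2298 to 2516 higher and 4221 to 4535 lower, 2222 to 2403 and 3928 to 4358 at 9 weeks, and 2058 to 2440 and 3648 to 4170 at 14 weeks. With the replicate block 2171 were higher and 4588 lower (2091 and 4123 at 9 weeks, 1982 and 3910 at 14 weeks), and the age difference called 0 and 0. Over all genes the numbers were not shown to pair the samples: correlations of same-numbered deviations ran from -0.402 to 0.456, and 2 of 9 libraries correlated best with their own number. The skeletal muscle sums, in contrast, had the same rank in both fractions for 7 of 9 numbers, a hint from the data that the numbers may mark shared animals, and the block moved that list from 6 to 9 called lower.

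For the age difference DESeq2 called 9 higher and 6 lower, and leaving out each library gave 0 to 0 and 0 to 2, the 2 arising without 14 weeks MN-TRAP replicate 3. The line differences moved most. Against Chat bacTRAP, higher calls were 745 without the 4 control libraries, 141 with DESeq2 and 26 with no filter, and lower calls 676 and 270 for the first 2. Leaving out each MN-TRAP library of the 2 lines (no spinal cord library was left out here) gave 20 to 518 and 15 to 346, the upper values without Chat bacTRAP 14 weeks MN-TRAP replicate 4, the lowest higher count without 14 weeks replicate 1 and the lowest lower count without 9 weeks replicate 2. Against hTDP-43 WT, the counts were 978 and 788 without the 4 and 44 and 372 with DESeq2, and leaving out each MN-TRAP library gave 0 to 714 and 5 to 592, the lowest without hTDP-43 WT 9 weeks MN-TRAP replicate 2 and the highest without replicate 3. Of 294 values for single genes 251 kept the call and 43 lost it. The causes were not tested.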
